A study of Homo sapiens with 3 samples.

Results

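HT29 cells grown on chitosan membranes grafted with hyaluronan (CSHA) were compared with HT29 cells grown on tissue culture polystyrene (TCP). HT29 is an established cell line from a human adenocarcinoma of the colon. Chitosan, a sugar polymer obtained by removing acetyl groups from chitin, was cast as a film. Hyaluronan is a long matrix polysaccharide that was crosslinked onto this film after it had been neutralised. The comparison used 2 of the 3 arrays of the series, chosen by their titles. The remaining array, from cells on chitosan membranes without the graft (CS), is given beside the comparison. It appears for individual genes, for some lists and RNA classes, and in a count of the genes that differed. All groups were the same line in the same serum-containing medium, with the plastic plate as the control, and the time in culture before RNA extraction is not given in the sources used here. RNA of each substrate was labelled with Cy3 and hybridized to 1 single-colour array, so no difference below has a replicate check, and none carries a p-value.

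The colonic epithelium renews from stem cells in the crypt. Their daughters become absorptive colonocytes, which carry a brush border and surface glycoproteins, or secretory cells such as goblet cells, which release mucins and trefoil peptides. Hyaluronan is bound at the cell surface mainly by CD44, and attachment to plastic or to a matrix is carried by integrins that connect to the actin cytoskeleton through talin, zyxin and filamin.

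Each level below is the log2 of the background-corrected signal minus the 75th percentile of its array, so that a level of 0 lies at that percentile and negative levels lie under it. Each difference is the level on CSHA minus the level on TCP, and a difference of 1 is 2-fold. A gene was called measured where its brightest probe was well above background on both arrays. Where this held on 1 array only, the difference is a bound, taken against the lowest signal well above background on the dim array or against the dim signal of the probe itself, whichever is higher. Of 21610 genes named on the array, 14623 could be compared, and 13525 of them were measured on both arrays.

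The labelled cell type was checked first. Of 18 markers of colon epithelium, 17 were measured on both arrays, and the remaining marker, the colon surface antigen GPA33, was measured on CSHA and not well above background on TCP. Of 12 fibroblast markers 0 were measured on both arrays, and 9 of them were not well above background on either, with a summed signal of 122 on TCP and 145 on CSHA. The summed signal of the epithelial markers was 529100 on TCP and 549500 on CSHA. Of 11 immune markers on the array, 7 were measured on both. The immune list summed to 4117 for TCP, 5289 for CS and 5191 for CSHA, with a median difference of 0.67 over the 7, and its part in the results below was not tested. CD14 and CD68 were the measured immune markers at least 2-fold higher on CSHA, with differences of 1.04 and 1.01. Of the T cell genes, CD3D had a bound of 1.15, and CD3E, measured on both arrays, was the lowest at -1.75. With normexp background correction CD14, CD68, CD3D and CD3E were at 0.95, 0.67, 0.50 and -0.57, each under 2-fold. Of 8 endothelial markers, 5 were measured on both arrays, and their list summed to 735 on TCP and 480 on CSHA.

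Across the transcriptome, 442 genes (3.02% of those compared) lay 2-fold or more above TCP on CSHA, and 582 (3.98%) lay as far under it. Bounds made up 174 of the former and 134 of the latter. Among genes measured on both arrays, 268 (1.98%) were higher by 2-fold or more and 448 (3.31%) were lower by as much. The bulk of the distribution lay the other way, since 61.6% of the measured genes were above 0 and their median difference was 0.12. From the 5th to the 95th percentile the differences ran from -0.85 to 0.75. At 4-fold the order of the counts turned, with 26 measured genes higher and 11 lower. With the arrays scaled to 7 spike-in control probes in place of the 75th percentile, every difference was raised, the median of the measured genes by 0.44, and the counts became 1809 higher and 176 lower. Values between -0.44 and 0 below therefore turn positive under that scaling, and the gene lists are read relative to the median of all genes.

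**Figure D1:**
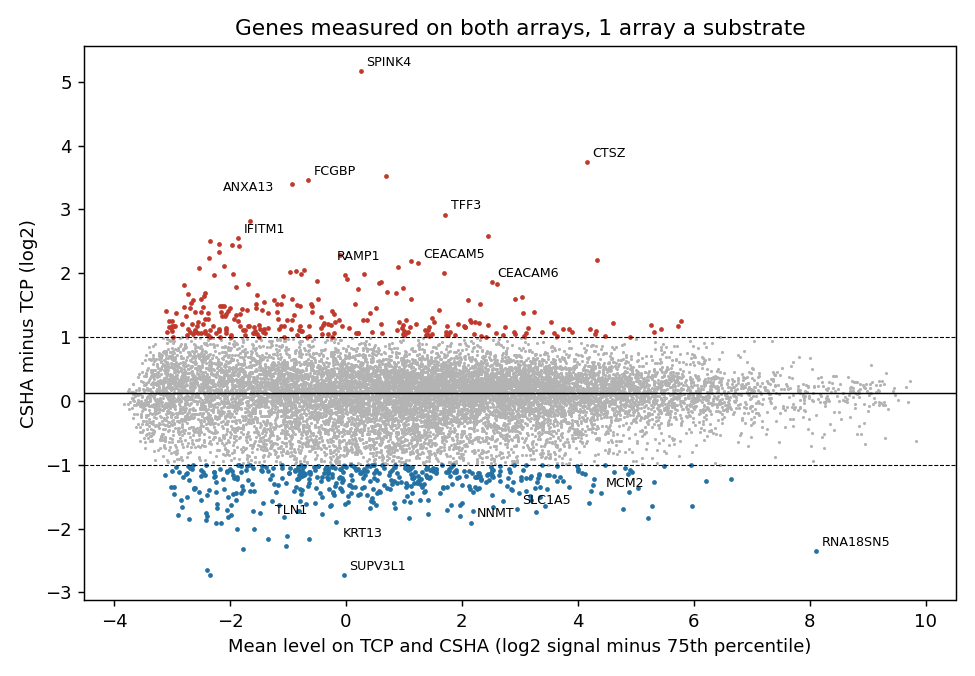
Difference between CSHA and TCP (log2, vertical axis) against the mean level on both arrays (log2 signal minus 75th percentile, horizontal axis), 1 point for each of 13525 genes measured on both arrays. The solid line is the median difference, 0.12, the dashed lines mark 2-fold, red points are higher by 2-fold or more (268) and blue points lower by as much (448). The highest points reach 5.17 and the lowest -2.73.

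The error of a single difference can be described only within the arrays. Probes printed many times and measured on both arrays had a median SD of 0.081 for the difference between a spot on CSHA and a spot on TCP, and the error that the scanner software assigned to a difference had a median of 0.204 and a maximum of 0.479. Both cover the printing and reading of spots and leave out differences between cultures. Over 24 blocks of the array surface, the median difference of measured spots ran from 0.068 to 0.146. The share of spots at least 2-fold higher ran over these blocks from 1.28% to 3.48%, and the share at least 2-fold lower from 2.33% to 5.11%.

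A second check came from genes with several probes. In all, 3511 genes had 2 or more measured probes, and in 1938 of them (55.2%) every probe differed in the same direction. Of the 41 such genes that were at least 2-fold higher by their brightest probe, 34 were higher by every probe, and 7 were at least 2-fold higher by every probe (0.199% of the 3511). Of the 62 that were at least 2-fold lower, 31 were lower by every probe and 9 were at least 2-fold lower by every probe (0.256%). These counts compare probes of 1 array pair and carry no test. The other probes of the higher genes had a median difference of 0.60, and 40 of these 47 probes lay above 0. The other probes of the lower genes had a median of -0.076, and 38 of these 71 probes lay under 0. Both counts stand beside 61.6% of all measured genes above 0. In 31 of the lower genes another probe was higher on CSHA, and in 10 of these the probes were designed to different transcripts. FLNA, which encodes the actin crosslinker filamin A, was one such case, with -1.74 by its brightest probe and 1.43 by the other.

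**Figure D2:**
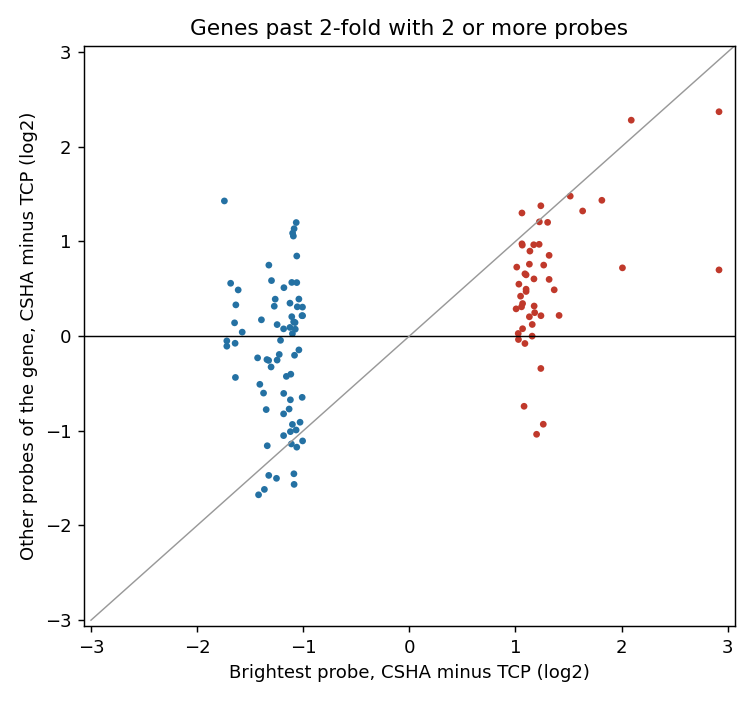
Difference between CSHA and TCP by the brightest probe (log2, horizontal axis) and by each other measured probe of the same gene (log2, vertical axis), for genes at least 2-fold apart with 2 or more measured probes. Red points are other probes of higher genes (47, of which 40 lie above 0) and blue points those of lower genes (71, of which 38 lie under 0). On the grey line both probes give the same difference.

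The genes best held by their own probes were led by RAMP1, which encodes the partner protein of the receptor for calcitonin gene-related peptide. RAMP1 had a level of -0.15 on TCP, 1.31 on CS and 1.95 on CSHA, a difference of 2.09 by the brightest probe and 2.28 by the other. MYLK, the myosin light chain kinase, went from -1.89 on TCP to -0.37 on CSHA, and its probes gave 1.48 and 1.52. HHLA2, a B7 family ligand, was higher by 1.81 and 1.43. Its level on TCP, -3.71, was close to the lowest level well above background on that array, -3.88. The remaining genes at least 2-fold higher by every probe were the small nucleolar RNA SNORA73B (1.63 and 1.32), PROC (1.22 and 1.21), which encodes the anticoagulant protein C, the nuclear receptor coactivator PNRC1 (1.30 and 1.20) and the small GTPase RAB37 (1.06 and 1.30). With normexp background correction the brightest probes of HHLA2, PROC and RAB37 gave 0.79, 0.96 and 0.67, each under 2-fold. TNFSF10, which encodes the death ligand TRAIL, was higher by 0.95 and 1.35, the cytochrome CYP1B1 by 0.99 and 1.28, and the endosomal motor MYO5B by 0.95 by its brightest probe. On CS, the levels of RAMP1, MYLK, HHLA2, SNORA73B, PROC, PNRC1 and RAB37 lay between those on TCP and CSHA.

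In the other direction, the list was led by UPK3B, a uroplakin, with levels of 1.29 (TCP), 0.71 (CS) and -0.13 (CSHA), and differences of -1.42 and -1.68 by its probes. STIP1, the co-chaperone that joins HSP70 and HSP90, was at -1.37 and -1.62, and CPNE1, a calcium-dependent membrane-binding copine, at -1.32 and -1.47. MEN1, which encodes the scaffold protein menin, was at -1.25 by its brightest probe and lower still by the other. The replication helicase subunit MCM5 had -1.01 and -1.11 by its probes, and MAD1L1, a spindle checkpoint protein, -1.09 and -1.45. DMAP1, a subunit of chromatin remodelling complexes, was at -1.12 and -1.01. The remaining genes past 2-fold by every probe were the small nucleolar RNA SNORA36A (-1.34 and -1.16) and TRABD2A (-1.11 and -1.14), which encodes a membrane protease that cleaves Wnt ligands. These genes were ranked by the probe that moved least, and on CS the levels of UPK3B, STIP1, CPNE1, MEN1, MCM5, MAD1L1 and DMAP1 lay between those on TCP and CSHA. That of TRABD2A lay above TCP, and that of SNORA36A lay under CSHA. With normexp the brightest probes of MAD1L1 and TRABD2A gave -0.87 and -0.98, each under 2-fold.

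Goblet cell secretory genes included SPINK4, which had the highest difference among genes measured on both arrays. The counts of the gene lists stand beside 61.6% above 0, 1.98% at least 2-fold higher and 3.31% lower by as much among all measured genes. SPINK4, a protease inhibitor secreted by goblet cells, had a level of -2.33 on TCP, 1.22 on CS and 2.84 on CSHA, a difference of 5.17. FCGBP, a mucus protein that binds the Fc part of immunoglobulin G, had -2.38 on TCP, -0.80 on CS and 1.08 on CSHA, a difference of 3.46. TFF3, the intestinal trefoil peptide, had 0.26 on TCP, 1.97 on CS and 3.18 on CSHA, a difference of 2.92 by its brightest probe, 2.37 by the next and 0.70 by the dimmest. All 3 genes were highest on CSHA and lowest on TCP. ST6GALNAC1, a sialyltransferase of mucins, was higher by 1.45 and RETNLB, a goblet cell peptide, by 1.17. AGR3, a protein disulfide isomerase of secretory cells, had a bound of 3.16. These made 5 of the 16 measured genes of the list, besides the bound, at least 2-fold higher. With normexp RETNLB was at 0.74, under 2-fold. The list median was 0.55 against 0.12, with 10 members above 0 and 6 under it. MUC2, the main gel-forming mucin, was at -0.10 by its brightest probe and 0.98 by the other, and SPDEF, the transcription factor that drives goblet cell maturation, was at -0.88. The goblet cell genes CLCA1, ZG16 and ITLN1, which mature goblet cells secrete, were not well above background on either array.

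Absorptive colonocyte genes had the highest median of the epithelial lists, 0.66, with 16 of 20 measured members above 0 and 8 at least 2-fold higher, against 61.6% and 1.98% of all measured genes. The calcium-dependent membrane protein ANXA13 had a level of -2.63 on TCP, 0.51 on CS and 0.76 on CSHA, a difference of 3.40. Among the surface glycoproteins of the carcinoembryonic antigen family, CEACAM5 had 0.17, 1.73 and 2.33 on TCP, CS and CSHA, CEACAM6 had 1.59, 2.67 and 3.45, and CEACAM7 had -0.14, 0.96 and 1.57. CEACAM family members have similar sequences that a probe may share. The brush border motor MYO1A was higher by 1.79, the lectin LGALS2 by 1.78, the peptidase DPP4 by 1.10 and the claudin CLDN23 by 1.11. The keratin KRT20 was at 0.90, the carbonic anhydrase CA2 at 0.64 and villin, VIL1, at 0.60, each under 2-fold. The fatty acid binding protein FABP1 had a bound of 1.01. With normexp FABP1 was at 0.57 and CLDN23 at 0.81, each under 2-fold. ALPI, SI, SLC26A3 and SLC9A3, which mark mature enterocytes or colonocytes, were not well above background on either array. The lowest member was the ubiquitin ligase TRIM31, at -0.59.

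**Figure D3:**
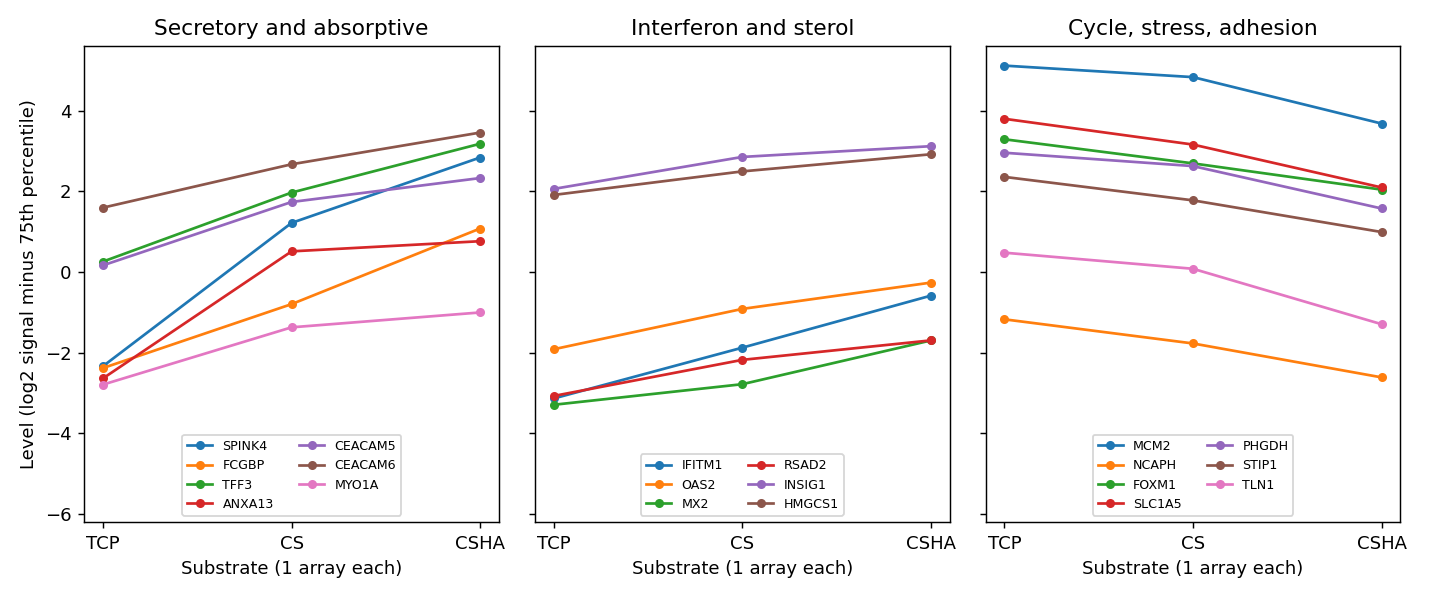
Level (log2 signal minus 75th percentile, vertical axis) of 20 genes on TCP, CS and CSHA, 1 array each and without error bars. Lines join the values of a gene and do not stand for a course in time. SPINK4 goes from -2.33 to 2.84 between TCP and CSHA and MCM2 from 5.11 to 3.68, and CS lies between TCP and CSHA for each gene shown.

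Crypt, Notch and keratin genes held members in both directions. Crypt stem cell genes had a median of 0.27 over 19 measured members. The Wnt-responsive transcription factors ASCL2 and SP5 were higher by 1.11 and 1.05, while the Wnt feedback gene AXIN2 was lower, at -1.04 by its brightest probe and -0.15 by the other. In the Notch pathway, which holds back secretory fate, the target HES1 had a level of -1.40 on TCP, -2.04 on CS and -2.79 on CSHA, a difference of -1.39. HES6, a relative that opposes HES1, was higher by 1.10, and all 4 of its probes were above 0. The target HEY1 had a bound of 2.12, the Notch-modifying glycosyltransferase LFNG was higher by 1.06, and the receptor NOTCH4 had a bound of -2.02. With normexp HES1 was at -0.70, HEY1 at 0.85, LFNG at 0.996 and NOTCH4 at -0.84, each under 2-fold. SP5 and AXIN2 were at 0.97 and -0.99 with normexp, also under 2-fold. HES6 and ASCL2 stayed past 2-fold, at 1.09 and 1.02. The Notch list had a median of 0.18, with 11 of 19 measured members above 0, so that its members were found in both directions. Only 2 of 17 enteroendocrine genes on the array were measured on both arrays. KRT23 was the sole measured simple epithelial keratin at least 2-fold apart, with 1.59, and KRT13, a keratin of stratified epithelium that ranks among the lowest genes with 1 probe, was at -1.90. HOXB8, a homeobox gene of posterior identity, was higher by 2.59.

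Bile acid, vitamin D and nuclear receptor genes were mostly higher, with 17 of 19 measured members above 0 and a median of 0.43. NR0B2, a repressor induced by bile acid signaling, had -1.74 on TCP, -0.01 on CS and 0.31 on CSHA, a difference of 2.06. HNF4A, a nuclear receptor that maintains the enterocyte programme, had dim levels of -3.49 on TCP, -3.55 on CS and -2.48 on CSHA, a difference of 1.01, which was 0.42 with normexp background correction. Of the subunits of the bile acid transporter, SLC51A had a bound of 1.14 and SLC51B, the lowest measured member of the list, was at -0.80. The hormone FGF19 had a bound of -1.14. With normexp SLC51A was at 0.48 and FGF19 at -0.39, each under 2-fold. Among the sterol and drug efflux transporters, ABCG1 was higher by 1.60 and ABCA1 by 1.53.

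Cholesterol genes shared a smaller and broader shift. All 25 genes of synthesis and uptake were measured, 19 were above 0, 3 were higher by 2-fold or more and 0 were lower by as much, and the median was 0.41. INSIG1, the sterol-sensing anchor of SREBP processing, had levels of 2.06 on TCP, 2.85 on CS and 3.12 on CSHA, a difference of 1.06. HMGCS1, an early enzyme of the mevalonate route, had 1.91, 2.49 and 2.92, a difference of 1.01. Both were highest on CSHA, with CS between. With normexp HMGCS1 was at 0.96, under 2-fold. MVD, a later enzyme of the route, was lowest in the list at -0.47.

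The sequences just before the start sites of members that moved together are shown for INSIG1 and HMGCS1, for 3 clustered histone genes described below, which went the opposite way, and for SPINK4, all from the RefSeq promoter table (GRCh38.p14). Each run holds the 200 bases before the annotated start, 5′ to 3′ on the strand of the gene, and capitals mark CCAAT (or ATTGG on the other strand) and TATAAA.
HMGCS1: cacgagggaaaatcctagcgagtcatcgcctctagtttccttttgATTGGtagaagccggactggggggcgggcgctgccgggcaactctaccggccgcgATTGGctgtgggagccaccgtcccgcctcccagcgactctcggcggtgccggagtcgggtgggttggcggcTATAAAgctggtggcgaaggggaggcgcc
INSIG1: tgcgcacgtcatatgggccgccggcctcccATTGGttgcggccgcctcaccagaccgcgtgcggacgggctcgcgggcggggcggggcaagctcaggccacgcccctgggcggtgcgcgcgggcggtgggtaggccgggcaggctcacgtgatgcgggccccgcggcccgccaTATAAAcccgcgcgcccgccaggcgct
H1-5: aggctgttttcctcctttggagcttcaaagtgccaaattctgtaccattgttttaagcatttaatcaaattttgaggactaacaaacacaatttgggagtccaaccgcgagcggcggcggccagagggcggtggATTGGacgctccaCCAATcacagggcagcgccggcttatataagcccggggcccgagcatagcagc
H3C4: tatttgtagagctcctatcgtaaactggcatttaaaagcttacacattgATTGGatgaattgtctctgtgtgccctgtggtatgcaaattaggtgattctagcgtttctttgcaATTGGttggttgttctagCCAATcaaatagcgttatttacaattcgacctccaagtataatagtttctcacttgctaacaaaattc
H3C8: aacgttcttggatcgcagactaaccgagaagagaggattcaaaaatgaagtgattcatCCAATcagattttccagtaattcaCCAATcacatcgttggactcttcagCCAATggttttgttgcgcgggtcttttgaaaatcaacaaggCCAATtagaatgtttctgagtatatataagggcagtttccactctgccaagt
SPINK4: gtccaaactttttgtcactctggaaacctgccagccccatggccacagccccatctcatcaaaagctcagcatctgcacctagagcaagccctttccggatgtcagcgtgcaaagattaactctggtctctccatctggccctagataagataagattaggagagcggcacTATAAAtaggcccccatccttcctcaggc

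These windows lie at chr5:43313413-43313612 (HMGCS1, minus strand), chr7:155297678-155297877 (INSIG1, plus strand), chr6:27867589-27867788 (H1-5, minus strand), chr6:26199294-26199493 (H3C4, minus strand), chr6:26271414-26271613 (H3C8, minus strand) and chr9:33239967-33240166 (SPINK4, plus strand). On either strand, CCAAT was found in 15 of 18 windows of the cholesterol list (83.3%) and in 48 of 56 windows of the clustered histones (85.7%), against 31.6% of the windows of all measured genes. The motif was thus frequent in a list with a median above that of all genes and in one with a median under it. TATAAA was found in 55.4% of the histone windows and 4.88% of all measured windows, and the sterol element TCACNCCAC in 1 of 18 cholesterol windows. For the goblet cell list, 3 of 10 windows held CCAAT and 2 held TATAAA, SPINK4 among them. The letters TTTATG, bound by CDX factors, lay in 2 of these 10 and in 3 of 15 absorptive colonocyte windows, against 3.98% of all measured windows, and CAAAGTCCA, bound by HNF4, in 0 of either. All motifs were searched on both strands, and matches of different motifs may overlap. Of all 27305 promoter windows in the table, 28.9% held CCAAT, 8.92% TATAAA, 7.90% TTTATG, 0.703% TCACNCCAC and 0.245% CAAAGTCCA. A match of letters is a description of the window and not a bound site.

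Interferon response genes were also higher as a list. Of 35 measured members 27 were above 0, 6 were higher by 2-fold or more (1.98% of all measured genes were) and 1 was lower by as much (3.31%), and the median was 0.38. IFITM1, a membrane protein that restricts viral entry, had -3.13 on TCP, -1.88 on CS and -0.59 on CSHA, a difference of 2.55. OAS2, a sensor of double-stranded RNA, had -1.91, -0.91 and -0.26, a difference of 1.65. MX2 and RSAD2, both antiviral effectors, were higher by 1.59 and 1.38, the guanylate-binding protein GBP2 by 1.11 and the RNA sensor IFIH1 by 1.05. With normexp background correction MX2 was at 0.68, RSAD2 at 0.63, GBP2 at 0.65 and IFIH1 at 0.91, each under 2-fold. Except for IFIH1, each of these lay under the 75th percentile on TCP and on CSHA. Bounds of 1.66 and 1.17 were obtained for the interferon-induced chemokines CXCL11 and CXCL10. NLRC5, the activator of class I antigen presentation genes, had -2.41 on TCP, -2.61 on CS and -0.99 on CSHA, a difference of 1.42. With normexp CXCL11 was at 0.75, CXCL10 at 0.40 and NLRC5 at 0.88, each under 2-fold. The antigen presentation genes as a list stayed near the median of all genes, at 0.14. The interferon-responsive gene that was lower past 2-fold was LGALS3BP, a secreted glycoprotein, at -1.37.

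Redox and metabolic genes followed several patterns. The aldo-keto reductase AKR1C1 had 0.69 on TCP, 2.77 on CS and 2.70 on CSHA, a difference of 2.01 by its brightest probe and 0.72 by the other, and AKR1C3 was higher by 1.19. Members of this family are near-identical in sequence and their probes may share targets. Of 33 measured members of the list of aldo-keto reductases and NRF2 targets, 27 were above 0, with a median of 0.25. PGD, an enzyme of the pentose phosphate route in the same list, was at -1.17. Hypoxia response genes outside glycolysis had a median of 0.29 with 19 of 23 above 0, led by NDRG1 at 1.23. Glycolysis genes had a median of -0.09, with HK1, the first enzyme of the route, at -1.21, PKM, the last, at -0.97 and PFKP at -0.97 and -0.72 by its probes. Under scaling to the spike-in probes the glycolysis median became 0.34, against 0.55 for all genes. The median of the 77 nuclear oxidative phosphorylation genes was 0.06, and ATP5F1B, the catalytic beta subunit of ATP synthase, stood apart at -1.83, with 6.13 on TCP, 6.05 on CS and 4.30 on CSHA.

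**Figure D4:**
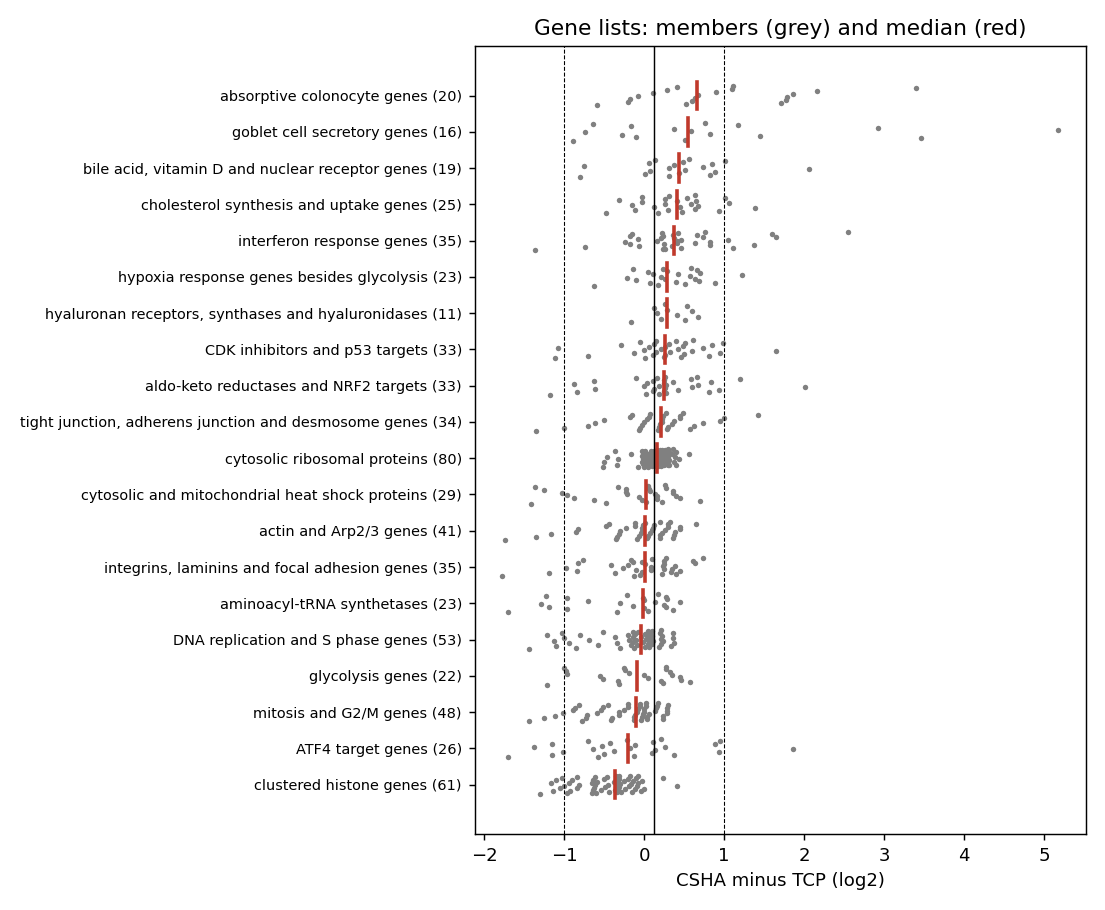
Difference between CSHA and TCP (log2, horizontal axis) of the measured members (grey points) of 20 gene lists, with the number measured in brackets and the median as a red bar. The solid line is the median of all measured genes, 0.12, and the dashed lines mark 2-fold. Medians run from 0.66 for absorptive colonocyte genes to -0.36 for clustered histone genes.

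Targets of ATF4, the transcription factor of amino acid and stress signaling, had a median of -0.20, with 10 of 26 measured members above 0 and 16 under it. The median was 0.24 after spike-in scaling, still under that of all genes. The glutamine transporter SLC1A5 had 3.79 on TCP, 3.16 on CS and 2.09 on CSHA, a difference of -1.70. PHGDH, the first enzyme of serine synthesis, had 2.95, 2.62 and 1.57, a difference of -1.38. The phosphatase subunit PPP1R15A was at -1.16, the amino acid transporter chain SLC3A2 at -1.15 and the stress factor DDIT3 at -1.01. The opposite was seen for NUPR1, a small stress-induced chromatin protein, at 1.86. With normexp PPP1R15A was at -0.84 and DDIT3 at -0.60, each under 2-fold. Among the 23 aminoacyl-tRNA synthetases, which charge tRNAs with amino acids, YARS1 was at -1.70, AARS1 at -1.28, FARSA at -1.22 and CARS1 at -1.19, while the highest, QARS1, reached 0.45 and the list median was -0.02, or 0.42 after spike-in scaling.

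Of 29 measured heat shock genes, 15 were above 0 and 14 under it. At least 2-fold lower were 4 of them and 0 were higher by as much, against 3.31% and 1.98% of all measured genes. The highest were HSPA1B at 0.70, HSPA2 at 0.45 and HSPA1A at 0.40. HSP90AB1, the constitutive cytosolic HSP90, was at -1.41 by its brightest probe and -0.51 by the other. DNAJA3, a mitochondrial co-chaperone, was at -1.25 and BAG3, which couples HSP70 to autophagy, at -1.02, while the median of the 29 measured heat shock genes was 0.02, or -0.02 under quantile normalization. In the endoplasmic reticulum list 1 of 29 measured genes was at least 2-fold lower, HYOU1 at -1.08, and the list median was 0.18. With normexp BAG3 was at -0.95 and HYOU1 at -0.75, each under 2-fold. ATF6B, a membrane-bound factor of the unfolded protein response, had -1.07 on TCP, 1.14 on CS and 2.46 on CSHA, a difference of 3.53 by its single probe. CTSZ, a lysosomal cysteine protease, had 2.28 on TCP, 3.90 on CS and 6.03 on CSHA, a difference of 3.74, also by a single probe, while the median of the 46 measured lysosomal genes was 0.11. In the vacuolar ATPase, the proton pump of lysosomes, the subunits ATP6V0E1, ATP6V0E2 and ATP6V1E1 were at -1.38, -1.36 and -1.26 and the median of 18 was 0.02, or -0.09 under quantile normalization. In the proteasome, PSMA7, PSMC5 and PSMD13 were at -1.25, -1.20 and -1.19 among 47 measured subunits with a median of -0.05, which was 0.38 after spike-in scaling. At least 2-fold lower were thus 3 of 18 vacuolar ATPase and 3 of 47 proteasome subunits, beside 3.31% of all measured genes. In neither was a subunit higher by as much. In these complexes, whose subunits assemble together, single members were more than 2-fold lower beside others that lay near the median of all genes.

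The medians of both cell cycle lists lay under that of all genes. For mitosis and G2/M, 32 of 48 measured genes were under 0, 4 were lower by 2-fold or more (against 3.31% of all measured genes) and 0 higher by as much, with a median of -0.10, or 0.34 after spike-in scaling. The condensin subunit NCAPH had -1.17 on TCP, -1.77 on CS and -2.61 on CSHA, a difference of -1.44. FOXM1, the transcription factor of G2/M genes, had 3.29, 2.69 and 2.04, a difference of -1.25. PLK1, a mitotic kinase, was at -1.12 by its brightest probe and -0.40 by the other, and CDC20, an activator of the anaphase-promoting complex, was at -1.01. With normexp NCAPH was at -0.88 and CDC20 at -0.98, each under 2-fold. For DNA replication, 28 of 53 genes were under 0 and 6 were at least 2-fold lower, again against 3.31%, with a median of -0.04, or 0.39 after spike-in scaling. The helicase subunit MCM2 had 5.11 on TCP, 4.83 on CS and 3.68 on CSHA, a difference of -1.43. ORC1, FEN1, RFC2 and POLA2, which license origins, process flaps, load the clamp and prime synthesis, were at -1.21, -1.12, -1.10 and -1.03. With normexp ORC1 and POLA2 were both at -0.98, under 2-fold. The proliferation antigen MKI67 was at -0.05 by its brightest probe, with a range from -0.82 to 0.04 over its 3 probes. Of 33 measured inhibitors of cyclin-dependent kinases and p53 targets, 27 were above 0 with a median of 0.27. TP53INP1, a p53-induced regulator of autophagy and cell death, was higher by 1.65. The cell cycle inhibitor CDKN2B was at -1.12 and the DNA damage sensor XPC at -1.08. With normexp TP53INP1 was at 0.72, CDKN2B at -0.48 and XPC at -0.85, each under 2-fold. MYC network genes had a median of 0.62 over 12 measured members, with MYCL at 1.39 and the antagonist MXD4 at 1.07 and 0.34 by its probes.

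Clustered histone genes formed the list furthest under the rest. These replication-dependent genes are copied in S phase, and their mRNAs end in a stem loop in place of a poly(A) tail. Of 61 measured members, 59 were under 0, 6 were at least 2-fold lower (against 3.31% of all measured genes) and 0 were at least 2-fold higher. The list median was -0.36 for CSHA and 0.11 for CS, and it was 0.08 on CSHA after spike-in scaling, where all genes had 0.55. H2BC6 had 1.44 on TCP, 1.52 on CS and 0.14 on CSHA, a difference of -1.30. The linker histone H1-5 had 3.23, 3.29 and 2.06, a difference of -1.17. H4C5 had 5.43, 5.54 and 4.29, a difference of -1.14. In each, the level on CS lay within 0.11 of TCP and only CSHA was apart. H3C8, H2BC26 and H3C4 were at -1.11, -1.04 and -1.02, and H3C1 was the highest at 0.41. With normexp H2BC26 was at -0.76, under 2-fold. Many of these genes encode near-identical proteins, and their probes may share targets.

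Among other RNAs that lack a poly(A) tail, small nucleolar and small nuclear RNAs had medians under 0, and ribosomal RNAs went both ways. Of 207 measured small nucleolar RNAs (snoRNA), which guide the modification of ribosomal RNA, 163 were under 0, and the median was -0.34 for CSHA beside -0.14 for CS. The H/ACA class (97 RNAs named SNORA) had a median of -0.43 with 15 at least 2-fold lower, against 3.31% of all measured genes. The C/D class (110 named SNORD) had a median of -0.28 with 3 at least 2-fold lower, a share under the 3.31% of all measured genes. Of 14 spliceosomal and other small nuclear RNAs, 13 were under 0, and the median was -0.65 for CSHA beside -0.90 for CS. The histone median was thus under 0 on CSHA and not on CS, and that of the small nuclear RNAs was under 0 on both membranes. The probe for 18S ribosomal RNA had 9.29 on TCP, 8.77 on CS and 6.93 on CSHA, a difference of -2.35, and the probe for 5.8S was at -0.90. The 4 probes for 28S, also without a tail, were all higher and ranged from 0.07 to 1.06. The labelling kits named for these arrays start cDNA from poly(A) tails, which these RNAs lack. The part of labelling or RNA quality in these differences was not tested. Messenger RNAs of the cytosolic ribosomal proteins, which are polyadenylated, had a median of 0.16 with 64 of 80 above 0 and a range from -0.52 to 0.56.

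**Figure D5:**
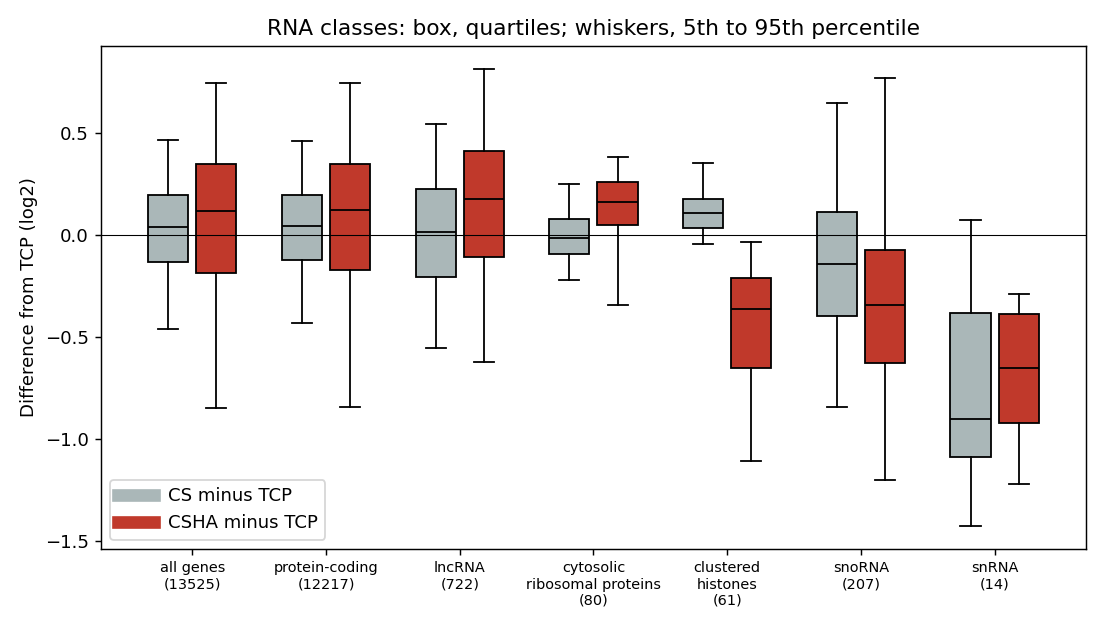
Difference from TCP (log2, vertical axis) by RNA class, with the number of genes measured on TCP and CSHA in brackets, for CS (grey) and CSHA (red). Boxes span the quartiles with the median as a line and whiskers reach the 5th and 95th percentiles. The clustered histones lie at medians of 0.11 (CS) and -0.36 (CSHA), and small nuclear RNAs lie under 0 on both.

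Receptors for hyaluronan and genes of attachment were also examined. CSHA and TCP differ in the chitosan film and in the graft together, so the part of the graft in these values was not tested. CD44 had a level of 4.26 on TCP, 4.57 on CS and 4.93 on CSHA, a difference of 0.67 by its brightest probe and 0.66 by the other. It was the highest of 11 measured genes in the list of hyaluronan receptors, synthases and hyaluronidases, of which 10 were above 0 and 0 reached 2-fold, with a median of 0.28. STAB2, a scavenger receptor for hyaluronan, had a bound of -1.19 and was at -0.64 with normexp, under 2-fold. HMMR, an intracellular hyaluronan-binding protein of the mitotic spindle, was at 0.16. Integrins, laminins and focal adhesion genes had a median of 0.01 over 35 measured members, 18 above 0 and 17 under it, and this median was -0.08 under quantile normalization and -0.05 with the percentile taken over measured probes. ITGA1, a collagen-binding integrin, was highest at 0.73, and ITGB1, the common beta chain, was at 0.64. TLN1, which links integrins to actin, had 0.48 on TCP, 0.08 on CS and -1.29 on CSHA, a difference of -1.77. The focal adhesion protein zyxin, ZYX, was at -1.19 and ITGB5, a vitronectin-binding chain, at -0.98.

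Among the actin genes, ARPC1B, a subunit of the branching complex, was at -1.16, and the list median was 0.01, or -0.06 under quantile normalization. Of the tubulins, TUBB4B and TUBA1A were at -1.69 and -1.64, and TPPP and TPPP3, which promote tubulin polymerization, were higher by 2.04 and 1.85, with a list median of -0.02 that was 0.42 after spike-in scaling. Tubulins have similar coding sequences that a probe may share. All 34 junction genes were measured and 24 were above 0, with a median of 0.21. NECTIN4, an adhesion molecule of adherens junctions, was higher by 1.42 and the tight junction claudin CLDN3 by 0.99, while PPL, the desmosomal linker periplakin, was at -1.35. The matrix protein TGFBI had 3.78 on TCP, 2.50 on CS and 2.60 on CSHA, a difference of -1.18.

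Ligands and receptors outside these groups included ERBB3, a receptor of the EGF family, at 1.24 by its brightest probe with a range from -0.34 to 1.38 over its 3 probes, and HBEGF, a ligand of that family, at -1.12. BMP2, a growth factor of the differentiated colon epithelium, was higher by 1.04 and WNT11, a ligand of the noncanonical route, was at -1.14. DEPTOR, an inhibitor of mTOR, was at 1.20. The medians of their lists were 0.18 for EGF ligands and receptors, 0.11 for BMP and TGF-beta response, 0.17 for Wnt ligands and receptors and 0.14 for mTOR genes, all near the 0.12 of all genes. With normexp HBEGF was at -0.66, BMP2 at 0.85 and DEPTOR at 0.73, each under 2-fold.

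Several of the largest differences rest on a single probe. Among the genes at least 2-fold apart and measured on both arrays, 227 of the higher and 386 of the lower ones had 1 measured probe. SUPV3L1, a mitochondrial RNA helicase, had 1.33 on TCP, 1.37 on CS and -1.40 on CSHA, a difference of -2.73. NNMT, which methylates nicotinamide, had 3.11 on TCP, 1.52 on CS and 1.21 on CSHA, a difference of -1.91. For SUPV3L1 the level on CS lay beside that on TCP and CSHA stood apart, and for NNMT both membranes lay under TCP. CHST14, which sulfates dermatan, was at -2.72, KANSL3, a chromatin regulator, at -2.28, and GALT, an enzyme of galactose use, at -2.16. In the upward direction, the kallikrein KLK12 was at 2.83, the transcription factor STAT4 at 2.44 and the zinc transporter SLC39A5 at 2.28. STAT4 had a dim level of -3.19 on TCP, and with normexp its difference was 0.86, under 2-fold.

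The outermost bounds need the most care. DNAJB8-AS1, an antisense RNA, had a signal of 9326 on TCP against 5.26 on CS and 5.42 on CSHA, so that it was at least 8.62 lower on CSHA, yet its other probe, for the same transcript, was at background on every array. The 2 probes of DSCAM, a neuronal adhesion gene, were designed to different transcripts and gave bounds of 3.17 and -2.42. LINC00965 had a bound of 3.57 by one probe and was at background by the other. TTR, the transthyretin gene, had signals of 21.3 (TCP), 178 (CS) and 210 (CSHA), which gave a bound of 3.20, and both membranes stood above TCP.

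The CS array lay between TCP and CSHA for most of the genes that differed. Of 263 genes at least 2-fold higher on CSHA and measured on all 3 arrays, the level on CS lay between for 230, beyond CSHA for 9 and on the other side of TCP for 24. Of the 263, 54 were 2-fold or more above TCP on CS too. Of 445 genes at least 2-fold lower on CSHA, the level on CS lay between for 379, for 32 beyond CSHA and for 34 on the other side of TCP, and 49 were 2-fold or more under TCP on CS too. Both differences are taken from the same TCP array, and the genes were picked by their difference on CSHA. Such a choice by itself favours a CS level between the others and a smaller median on CS. The counts and medians therefore describe the order of 3 arrays, give no second measurement and cannot show a graded effect. Beside the median of 1.20 for the higher genes on CSHA stood 0.59 on CS, and beside -1.21 for the lower genes stood -0.34.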

How the data were processed

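RNA of HT29 cells was hybridized to 3 single-colour arrays on 1 slide, 1 array for each substrate. The authors deposited the background-corrected intensity of each spot from Agilent Feature Extraction 10.7.3.1 (file headers; the methods name another version). The authors also deposited normalized log2 values of the same arrays, for which the methods give a floor of 1 and a shift by the 75th percentile, centred near 0 by a step that is not given in the sources used here. Their column medians were 0.013 for TCP, -0.13 for CS and 0.043 for CSHA. Over spots, their differences between CSHA and TCP correlated with those of the scanner signals (r = 0.81). Their direction is therefore that of log2 CSHA over TCP, while the centring is unknown. Their scale was not fitted, and fewer genes reached 2-fold with them (184 higher and 328 lower). The sample records and the methods name different kits for RNA extraction.

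Log2 signals (0 spots lay under the floor of 1) were shifted by the 75th percentile over non-control probes, outlier-flagged spots were dropped (323 on TCP, 359 on CSHA) and spots of a probe averaged. Accessions were matched to RefSeq symbols (GRCh38.p14, names only, since the array was designed on an older build): 30004 of 50599 probes matched. The brightest probe stood for a gene. With 1 array a side no test was run, and genes were counted by size. Genes were named as the 15 highest and 15 lowest with agreeing probes (ranked by the probe that moved least) and with 1 probe, the 5 outermost bounds each way, and the members of 59 lists past 2-fold or at the ends of a list. Not all are printed, and some items are not reported here. The comparison, the members and the lists were chosen with earlier results of these data known. Promoter windows and motifs were chosen after the values were seen. The number of arrays limits the precision. Calculations were tested on simulated data. Tools were R 4.3.3, limma 3.58.1 (normexp and quantile alternatives), Python 3.11.15, numpy 2.4.6, pandas 2.3.3 and matplotlib 3.10.9.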

Additional observations from a re-analysis of the deposited data

How the results depend on the processing

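No paired analysis was possible because each substrate had 1 array. Against 442 higher and 582 lower genes, the counts were 155 and 292 with normexp background correction, 184 and 328 with the deposited log2 values, 1130 and 1191 with no filter on dim probes, and 1809 and 176 with scaling to spike-in probes. With genes well above background on both arrays the higher count was 268. At 1.5-fold the counts were 1685 and 1637, at 3-fold 149 and 128, and with every one of 2 or more probes at least 2-fold apart they were 7 and 9. Quantile normalization, both other shifts and the mean over probes gave 371 to 450 higher and 553 to 675 lower genes. The share of higher genes among those called was 43.2%, and it was 91.1% after spike-in scaling and 34.7% with normexp. Relative to the median of all genes, 12 of the 57 lists with at least 3 measured genes lay 0.25 or more away, and 1 of them changed sign in 1 setting: the mucins besides MUC2 were at -0.00482 with no filter. Of 433 genes recomputed, 118 moved by their scanner error or more with normexp and 416 with spike-in scaling. Of the 196 among them at least 2-fold apart, 66 were under 2-fold with normexp, 63 with the deposited values and 74 with spike-in scaling, and 0 changed sign in any setting. The cause of these changes was not tested. Nothing here measures the spread between cultures, and dim genes have bounds only.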

Other observations

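Histone genes outside the clusters, chosen after the values were seen, mostly make polyadenylated mRNA, which was not examined here. All 9 examined were measured on both arrays, 6 were above 0 on CSHA and the median was 0.11. H2AZ1 was at 0.11 and H3-3A at 0.21 with all 4 of its probes above 0. H3-3B was the lowest, at -0.64 by its brightest probe and 0.41 by the other. These values stand beside the -0.36 of the clustered histone genes.

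Probes without a RefSeq symbol were not used in the comparison. Of 5208 that were measured on both arrays, 131 lay 2-fold or more above TCP on CSHA and 159 as far under it, with a median of 0.10. Of the 13525 measured genes with a symbol, 268 and 448 did so, with a median of 0.12.

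The calls varied with brightness. Ranked by level and split into 5 equal groups of 2705 genes, the brightest group held 18 genes that were higher by 2-fold or more and 34 that were lower by as much. The dimmest group held 113 and 99, and the group next to it 64 and 142. The median difference ran from 0.085 to 0.14 over the groups.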
